A study of Mus musculus with 4 samples.

Results

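Hubs of open chromatin were examined in the facial surface ectoderm of E11.5 mouse embryos, as 848 chains of 5 or more control ATAC-seq peaks. They were chosen by peak position alone. Control peaks on chromosomes 1 to 19 were put in order and joined into a chain wherever the gap from the end of a peak to the start of the next was at most 5 kb. The hubs held 5890 of the 63926 control peaks on these chromosomes, or 9.21%, and the other 58036 peaks lay in 43739 chains of 1 to 4 peaks. ATAC-seq maps accessible DNA by the insertions of a transposase. The series held 4 libraries, each from ectoderm freed of mesenchyme with Dispase and pooled over the facial prominences. The 2 control libraries came from Tfap2a flox/+; Tfap2b flox/+ littermates that lacked Crect, and the 2 EDKO libraries came from Crect; Tfap2a flox/flox; Tfap2b flox/flox embryos. Floxed alleles of both AP-2 genes were thus present in the controls too. Crect is a Cre transgene driven by an enhancer from an intron of Tfap2a.

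The authors called peaks once on both control libraries together, which gave the control peaks. In a second call the EDKO libraries served as the background for these control libraries, and its peaks, sites more open in control than in EDKO ectoderm, are named AP-2-dependent regions here. Of all control peaks on chromosomes 1 to 19, 4.51% overlapped such a region by at least 1 bp. No value per library, read depth or replicate error came with either list, so no test between genotypes could be made. The 95% Wilson intervals below cover counting error only, and peaks within a hub share a locus and are not independent. With bulk ectoderm, a site open in fewer cells and a site less open in each cell cannot be told apart.

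Genes that control patterning often lie among many enhancers, short stretches of DNA where transcription factors bind and raise transcription from a distance. Each enhancer tends to act in some of the tissues that use the gene, and several can act in the same tissue. AP-2 factors, of which AP-2α (Tfap2a) and AP-2β (Tfap2b) are the members removed in EDKO ectoderm, bind a GC-rich palindrome and are known regulators of the surface ectoderm and the neural crest.

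Windows of 300 bases around the summits of AP-2-dependent regions show sites in hubs that held a match to the AP-2 consensus, which was the minority: of the 155 regions in the hubs of single-copy sequence described below, 43 (27.7%) held one, as did 5 of the 17 such windows from hubs of the listed genes. Control peaks of these hubs without a region held a match in 25.25% within 5 kb of a gene's start site. Farther away it was 19.8%, in 300 bases around the summit in both cases. The windows shown are from hubs at Wnt10a and Wnt3a (secreted WNT ligands), Dlx1 and Dlx2 (homeobox genes of jaw patterning) and Alx4 (a homeobox gene of the frontonasal mesenchyme). Each is the plus strand of GRCm38/mm10, written 5′ to 3′, and the capitals mark a match to that consensus, GCCNNNGGC, which reads the same on both strands.
Wnt10a intron, chr1:74794554-74794853: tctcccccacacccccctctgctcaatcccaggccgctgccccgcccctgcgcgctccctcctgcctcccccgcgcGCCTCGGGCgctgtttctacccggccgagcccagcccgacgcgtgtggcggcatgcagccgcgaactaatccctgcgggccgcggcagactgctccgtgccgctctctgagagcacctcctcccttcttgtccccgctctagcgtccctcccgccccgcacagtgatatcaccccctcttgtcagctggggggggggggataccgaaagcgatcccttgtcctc
Dlx1 to Dlx2 interval, chr2:71541358-71541657: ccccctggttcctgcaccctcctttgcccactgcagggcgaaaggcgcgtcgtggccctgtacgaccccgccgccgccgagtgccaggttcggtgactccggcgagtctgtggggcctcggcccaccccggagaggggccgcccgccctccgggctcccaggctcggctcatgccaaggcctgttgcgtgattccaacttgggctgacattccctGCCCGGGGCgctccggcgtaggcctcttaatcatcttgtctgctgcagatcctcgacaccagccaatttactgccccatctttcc
Alx4 intron, chr2:93649502-93649801: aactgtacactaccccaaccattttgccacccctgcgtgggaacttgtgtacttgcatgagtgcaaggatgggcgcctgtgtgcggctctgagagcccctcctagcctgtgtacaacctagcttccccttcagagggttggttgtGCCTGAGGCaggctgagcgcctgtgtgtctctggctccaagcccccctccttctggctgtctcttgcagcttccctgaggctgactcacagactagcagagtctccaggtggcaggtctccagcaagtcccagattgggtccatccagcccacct
Wnt3a intron, chr11:59284280-59284579: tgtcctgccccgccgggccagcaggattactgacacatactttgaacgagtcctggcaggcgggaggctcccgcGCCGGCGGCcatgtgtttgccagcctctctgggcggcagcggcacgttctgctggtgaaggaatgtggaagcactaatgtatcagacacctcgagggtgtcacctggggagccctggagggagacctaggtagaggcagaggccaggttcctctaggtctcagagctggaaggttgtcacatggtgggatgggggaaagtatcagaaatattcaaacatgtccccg

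A second kind of hub was an array of repeated DNA. The next sequences, 61 bases each of the plus strand of GRCm38/mm10, came from AP-2-dependent regions of arrays on chromosome 6 and are shown because the same letters recurred from region to region. The first was found in 26 regions of the array near Atg7, the second, a close copy, in 3 regions of that array, and the third in 8 regions of the array near Pdia4.
Atg7 array, chr6:114497465-114497525: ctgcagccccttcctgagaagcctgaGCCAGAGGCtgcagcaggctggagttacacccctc
Atg7 array, copy, chr6:114594421-114594481: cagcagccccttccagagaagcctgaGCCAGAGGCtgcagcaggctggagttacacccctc
Pdia4 array, chr6:47740741-47740801: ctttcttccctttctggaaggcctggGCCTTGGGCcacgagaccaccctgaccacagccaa

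To separate both kinds, the copy number of a peak was taken as the median number of times its words of 31 bases occur in the assembly. A hub was called multi-copy when the median over its peaks was 2 or more. There were 71 multi-copy hubs with 1004 peaks and 777 single-copy hubs with 4886 peaks. Multi-copy sequence made up 17.6% of the peaks in hubs and 5.95% of the peaks outside. Of the 12 hubs with 20 or more peaks, 11 were multi-copy.

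**Figure D1:**
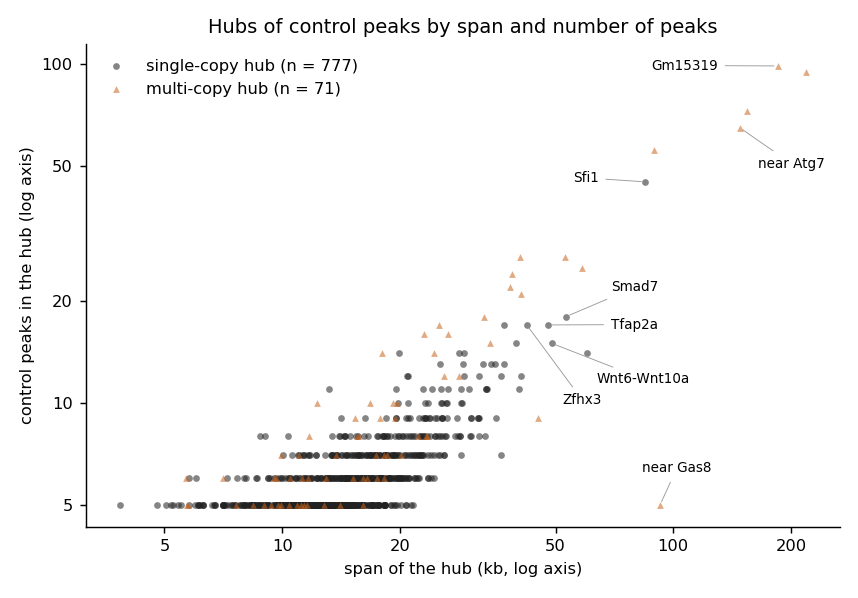
Each point is a hub, placed by its span (kb, log axis) and its number of control peaks (log axis), with single-copy hubs as dots (n = 777) and multi-copy hubs as triangles (n = 71). The triangles hold the highest counts, up to 99 peaks, while the single-copy hub with the most peaks, at Sfi1, has 45 and most dots lie under 10.

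A single-copy hub typically spanned 14.5 kb, with quartiles of 11.3 and 18.3 kb, and held a median of 6 peaks. Its peaks covered a median of 39.7% of the span. The median gap between neighbours was 1151.5 bp within all hubs, beside 12835 bp between all neighbouring control peaks, a difference that follows from the rule. At the limits of the rule, 1188 pairs of neighbours had gaps of 4.5 to 5 kb and 1085 had gaps over 5 and up to 5.5 kb, while 397 hubs had exactly 5 peaks and 849 chains had exactly 4.

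Hub peaks were broader than others, with a median width of 726 bp in single-copy hubs and 545 bp outside hubs. They were similar in strength. The median −log10 p at the summit, an unadjusted value from the authors' peak caller, was 5.34 in single-copy hubs and 5.10 outside. Among single-copy peaks within 5 kb of a start site, those in hubs were weaker (5.96 beside 7.98 outside). Beyond 5 kb they were stronger (5.10 beside 4.72). GC content had a median of 54.1% in single-copy hubs and 51.7% outside.

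Most single-copy hubs sat at genes. A protein-coding start site, 1 per gene, lay within the span of 487 of the 777 hubs, or 62.7% (95% interval 59.2 to 66.0%). In 352 of them it was the only one, and the other 135 held several, up to 9. A further 180 hubs lay inside a gene without its start site and 110 lay between genes. The same shares for shorter chains are not given here, so whether hubs differ from them was not tested. By peak, 37.6% of those in single-copy hubs lay within 5 kb of a start site. It was 29.5% of peaks outside hubs and 38.9% of peaks in chains of 4. The hubs without a start site were a median of 30.3 kb from the nearest, and 47 were more than 100 kb away. The farthest was 749.3 kb from the nearest of these start sites, and start sites of other transcripts were not counted here. It lay inside Zfhx3, which encodes a large homeodomain and zinc-finger protein, and held 17 peaks over 42.2 kb.

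Gene lists, chosen with earlier results of these data known, were then compared. Of these lists, transcription factors that pattern the face had the highest share in single-copy hubs. Of 45 such factors, 31 (68.9%, 95% interval 54.3 to 80.5%) had their start site in a hub, beside 718 of 20722 protein-coding genes (3.46%). They shared 28 hubs with 232 peaks. Among them were all of Dlx1 to Dlx6, which specify upper and lower jaw, in 3 pairs, and Irx1 to Irx5, homeobox genes of the Iroquois family. Pax6, which directs the lens and nasal placodes, Pitx1, a homeobox gene of the oral ectoderm, and Msx1 and Msx2, homeobox genes that respond to BMP signals, also had hubs. The 14 without one included Isl1, Sox9, Sox11 and Eya1.

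The other lists held smaller shares. For ligands, receptors and targets of the FGF, BMP, hedgehog, EDA and Notch pathways it was 14 of 43 genes (32.6%), among them Shh, Fgf8, Bmp7, Jag1, Jag2, Hes1 and Smad7. For Hox genes, which are silent in much of the face, it was 8 of 39 (20.5%), and for regulators of mesenchyme and neural crest 6 of 30 (20%). For transcription factors of the surface ectoderm it was 4 of 21 (19.05%), namely Tfap2a, Tfap2b, Trp63 and Gata3, and for the WNT pathway 9 of 61 (14.8%). For markers of neurons it was 2 of 17 (11.8%), for endothelium and blood 2 of 21 (9.52%) and for keratins and adhesion genes 4 of 43 (9.30%), these being Krt14, Dsp, Jup and Gjb2. The intervals of the last 3 lists reached down to between 2.65% and 3.68%, close to the share of all genes. Lists of mesenchyme, neurons and blood were included because a sheet of ectoderm may carry such cells. Pdgfra, a mesenchymal receptor, had a hub of 8 peaks, and the part of other cells in these hubs was not tested.

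**Figure D2:**
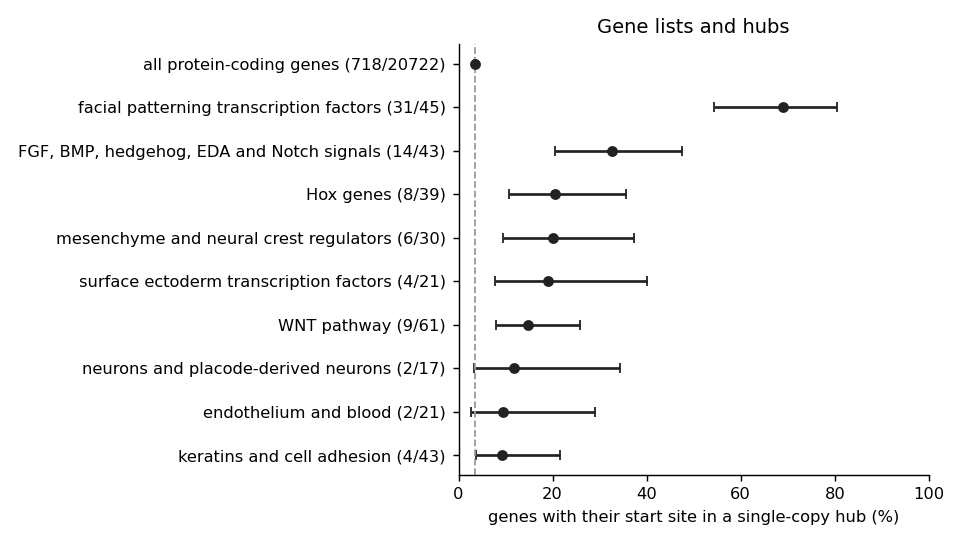
The share of each list's genes whose start site lies in a single-copy hub (%, dots) is shown with its 95% Wilson interval (bars) and the number of genes, and the dashed line marks all protein-coding genes (3.46%). The list of facial patterning factors lies farthest to the right at 68.9%, and every list has a higher share than all genes.

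Classes made from RefSeq gene descriptions, which 94.1% of the genes had, gave a wider view. These classes were chosen after the values of the lists were known. Genes described as homeobox had their start site in a single-copy hub in 53 of 184 cases (28.8%), T-box genes in 6 of 13, SRY-box genes in 6 of 18, forkhead genes in 7 of 41 and basic helix-loop-helix genes in 5 of 32. Zinc finger proteins were at 13 of 384 (3.39%), near all genes. Genes described as keratin were at 1 of 53 (1.89%), with an interval up to 9.94%. None of 1087 olfactory receptor genes had one, where the interval reaches up to 0.352%. Ribosomal protein genes, which are expressed in every cell, were at 8 of 86 (9.30%).

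The largest single-copy hubs could be described one by one. The hub at Sfi1 and Eif4enif1, a centrosomal gene and a translation factor gene, had 45 peaks over 84.6 kb and no AP-2-dependent region. In 5 of its peaks the sequence was multi-copy, and a median of 25.5% of a peak was masked as repeat, beside 8.84% over all peaks of single-copy hubs. Copy number was counted in the assembly, and whether the assembly holds fewer copies of this locus than the genome was not examined. Smad7, which encodes an inhibitor of TGF-β and BMP signalling, followed with 18 peaks. Then came Tfap2a and the hubs in Zfhx3 and near Zfp982, each with 17. Wnt6 and Wnt10a shared 15 peaks over 48.9 kb, and Meis2, a homeobox gene, and Pax6 had 14 each. The other 3 of the 6 hubs with 14 or 15 peaks, named after their values were seen, were at Gse1 (15 peaks, 1 region), Skor1 (14, none) and Cbarp with Atp5d (14, 1 region). Of the 45 single-copy hubs with 10 or more peaks, 16 held the start site of a listed gene and 8 that of a gene described as homeobox. Over all 777 single-copy hubs it was 72 and 46.

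Density of peaks differed between hubs of like size. The Tfap2b hub packed 11 peaks into 13.15 kb, with a median gap of 357.5 bp, while the Wnt6 and Wnt10a hub spread 15 peaks over 48.9 kb, with a median gap of 1461 bp. At Hes1, a target of Notch signalling, 5 peaks covered 92.8% of 12.5 kb, the highest coverage of a single-copy hub. The next were Snx18, with 91.3%, and a hub inside Ahdc1, with 90.8%.

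AP-2-dependent regions were slightly less frequent among hub peaks than among others, an order that depended on the gap limit and on repeated sequence. Beside the 4.51% of all control peaks, hubs had 222 of 5890 peaks with a region, or 3.77% (95% interval 3.31 to 4.29%), and the share outside hubs was 4.58% (4.42 to 4.76%). The single-copy hubs were lower, with 151 of 4886 peaks or 3.09% (2.64 to 3.61%), and the multi-copy hubs higher, with 71 of 1004 peaks or 7.07% (5.64 to 8.83%). In number of regions, 293 of the 3010 on these chromosomes lay in hubs, or 9.73%, which was close to the 9.21% of control peaks that did. They were split between 155 in single-copy hubs and 138 in multi-copy hubs. With gaps of at most 2 kb the share of hub peaks turned to 4.83% (3.95 to 5.91%), above that of all control peaks, and it was 2.81% (1.98 to 3.96%) once multi-copy hubs were left out as well.

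Counted by hub instead of by peak, 149 of 848 hubs (17.6%, 95% interval 15.2 to 20.3%) held at least 1. In single-copy hubs it was 129 of 777 (16.6%, 14.2 to 19.4%). Of these, 107 had 1 region, 18 had 2 and 4 had 3 or more. Counting single-copy peaks only, the share of chains with a region was larger for longer chains, from 5.15% of single peaks to 11.8% of chains of 4 and 23.4% of hubs of 10 to 19. A longer chain has more peaks that can overlap a region, so this share can rise by counting alone. The share of peaks went the other way, from 5.15% of single peaks to 3.60% in chains of 4, 3.18% in hubs of 5 and 2.43% (1.43 to 4.11%) in hubs of 10 to 19. The intervals of the hub sizes overlapped each other.

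**Figure D3:**
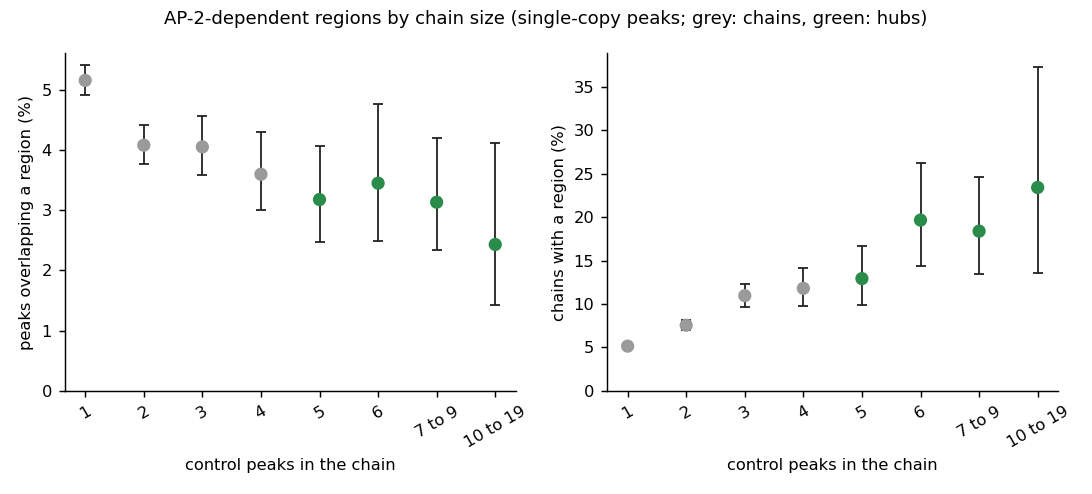
For single-copy peaks grouped by the number of control peaks in their chain, the left panel gives the share of peaks (%) and the right panel the share of chains (%) that overlap an AP-2-dependent region, with 95% Wilson intervals, grey for chains of 1 to 4 and green for hubs. The share of peaks goes from 5.15% for single peaks to 2.43% for the largest hubs drawn, while the share of chains goes from 5.15% to 23.4%. A longer chain has more peaks that can overlap a region.

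Regions were unevenly spread over the hubs by place. Hubs at a start site had a region in 59 of 487 cases (12.1%), and 2.19% of their peaks overlapped one (1.73 to 2.76%). Hubs inside a gene had one in 51 of 180 (28.3%), with 5.55% of peaks (4.33 to 7.07%), and hubs between genes in 19 of 110 (17.3%), with 3.40% of peaks (2.26 to 5.10%). The intervals of the hubs at start sites and of those inside genes do not overlap, for hubs or for peaks.

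Single-copy peaks were then split at 5 kb from a start site and by strength. More than 5 kb from the nearest start site, again 1 per gene, 112 of 2996 hub peaks overlapped a region, or 3.74% (3.12 to 4.48%). Outside hubs it was 2329 of 37929 peaks, or 6.14% (5.90 to 6.39%). The hub peaks were lower in every quartile class of summit strength. From the weakest class to the strongest, the shares were 0.129, 0.836, 2.60 and 12.7% in hubs and 1.29, 3.50, 8.61 and 17.95% outside, and no pair of intervals overlapped. These hub peaks were wider than those outside (median 653.5 and 455 bp), and nearer to a start site (median 18.3 and 47.7 kb), so neither width nor distance beyond 5 kb was held alike.

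Within 5 kb of a start site the order was reversed in the strongest class, with 35 of 686 hub peaks (5.10%, 3.69 to 7.01%) against 130 of 9391 outside (1.38%, 1.17 to 1.64%). In the class below it the hub peaks were lower, with 1 of 426 (0.235%, 0.0415 to 1.32%) against 61 of 3334 (1.83%, 1.43 to 2.34%), and in the 2 weakest classes the intervals overlapped. Of the 35 hub peaks in the strongest class, 7 were at histone genes, where the regions had multi-copy sequence. Without regions of multi-copy sequence it was 28 hub peaks (4.08%, 2.84 to 5.84%) against 124 outside (1.32%, 1.11 to 1.57%). Over all strengths within 5 kb it was 2.13% (1.56 to 2.90%) in hubs and 1.28% (1.13 to 1.47%) outside, and without multi-copy regions 1.75% (1.24 to 2.46%) and 1.25% (1.09 to 1.43%), where the intervals overlapped. The strongest hub peaks near start sites were also wider, with a median of 1854 bp beside 1475 bp.

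**Figure D4:**
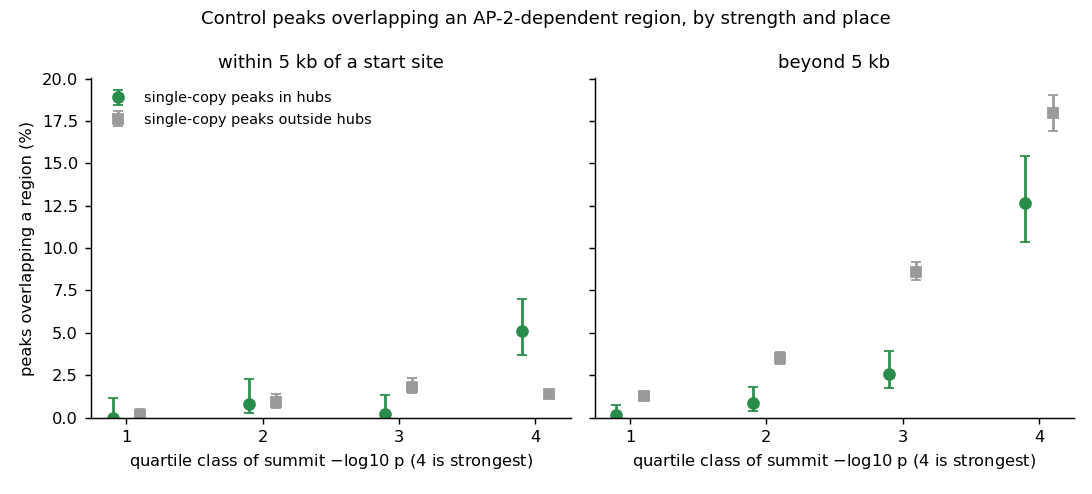
The share of single-copy control peaks that overlap an AP-2-dependent region (%, with 95% Wilson intervals) is drawn by quartile class of summit −log10 p, for peaks within 5 kb of a start site (left) and beyond (right), with hub peaks as green dots and peaks outside hubs as grey squares. Beyond 5 kb the green dots lie under the grey squares in all 4 classes (12.7 and 17.95% in the strongest), and within 5 kb the strongest hub peaks lie higher, at 5.10% beside 1.38%, and those of the next class lower, at 0.235% beside 1.83%.

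The 155 regions of single-copy hubs sat mostly in the strong peaks of their hub. In 70 cases (45.2%) it was the strongest peak of the hub and in 117 (75.5%) one of the 2 strongest, while the strongest peak makes up on average 16.2% of the peaks of a hub. Both lists rest on the same control libraries, and outside hubs too the share beyond 5 kb was higher in each stronger class. By position, 94 were in introns, 12 in exons and 49 between genes. The 146 of single-copy sequence were nearer to start sites than the 2545 single-copy regions outside hubs, with a median of 17.2 kb beside 58.5 kb, and 78.8% beside 91.5% were more than 5 kb away. Single-copy control peaks beyond 5 kb, with or without a region, differed in the same direction, with medians of 18.3 kb in hubs and 47.7 kb outside. The summit −log10 p of the 146 regions, from 3.22 to 14.7, had a median of 4.67 beside 4.29.

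Hubs of patterning factors had a share with regions near that of all hubs at start sites, with a wide interval. Of the 28 hubs of the facial patterning list, 4 held any (14.3%, 5.70 to 31.5%), beside 12.1% of all single-copy hubs at start sites, and 5 of their 232 peaks (2.16%) overlapped one, beside 2.19%. The 4 were the hubs at Dlx1 and Dlx2, Irx4, Irx5 and Msx1. No peak overlapped a region in the hubs at Dlx3 and Dlx4 (13 peaks), Dlx5 and Dlx6 (13), Pax6 (14), Meis1 (13), Meis2 (14), Tbx2 (10), Tbx3 (10), Pitx1 (9) or Msx2 (8). Over all lists, 14 of the 72 hubs with a listed gene held a region (19.4%, 11.95 to 30.0%), also beside 12.1% (9.51 to 15.3%), with overlapping intervals.

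The interval between Dlx1 and Dlx2 held the stronger example. A control peak of 4650 bp, with the highest summit of the 11 peaks in that hub (−log10 p 11.2), overlapped 2 AP-2-dependent regions. The larger, of 662 bp, had an area under the curve of 1457 (the −log10 p above threshold, summed over the region) and a summit −log10 p of 9.74, lay 5.30 kb from the Dlx2 start site and held 2 matches to GCCNNNGGC, of which the printed window shows 1. The other, 6.94 kb from that start site, had an area of 429.9 and no match. At Irx4, 1 region lay 2.33 kb upstream of the start site and another in an intron 2.76 kb downstream. At Msx1 the region lay 7.27 kb from the start site, and a separate hub of 5 peaks, 68.7 kb from the nearest start site, held another.

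Hubs of signalling genes held some regions too. In the Wnt6 and Wnt10a hub, 1 region lay in an intron of Wnt6, 9.30 kb from its start site (summit −log10 p 5.64), and 1 in an intron of Wnt10a, 3.13 kb from its start site (5.86). The 2 strongest of the 15 control peaks there, with summits of 12.6 and 11.9, had none. In the Wnt3a and Wnt9a hub the region was in the strongest control peak of 11. Of the BMP pathway, Smad7 (2 regions, 28.9 and 30.7 kb from the start site) and Id3 (1 region) were the hubs with any, and the hubs at Shh, Fgf8, Bmp7, Jag1, Jag2 and Hes1 had none. WNT ligands Wnt1 and Wnt7b also had hubs, of 7 peaks each, without a region.

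Among genes of the surface ectoderm, Trp63, whose product p63 maintains stratified epithelia, had a hub of 8 peaks with 1 region 12.9 kb from the start site and a second hub of 9 peaks, further inside the gene, with 1 more at 31.8 kb. Krt14, a keratin of basal keratinocytes, had a hub of 5 peaks whose strongest held a region 1.183 kb from the start site. The start site of Grhl3 lay outside hubs. A hub of 5 peaks 18.8 kb from it held a region in its strongest peak, in an intron of Grhl3. Gata3 (8 peaks), Dsp (8), Jup (8) and Gjb2 (5) had none. Of mesenchymal regulators, Zeb2 had 2 regions and Alx4 had 1, and Snai1, Foxc1, Osr2 and Pdgfra had none. In the Hox clusters, 1 region lay in the hub at Hoxc5 and Hoxc6.

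The genes that were removed had hubs of their own. The Tfap2a hub held 17 peaks over 47.7 kb, with summits from 3.69 to 11.2, and its single region (area under the curve 1025, summit −log10 p 6.88) lay 14.1 kb from the start site. The Tfap2b hub had 11 weaker peaks, with summits from 3.39 to 7.49, and no region. A second hub of 7 peaks inside Tfap2b held 1 region, 25.1 kb from the start site, of summit −log10 p 3.54. EDKO cells carry Cre-deleted alleles of both genes, with loxP sites around exons 5 and 6 of Tfap2a and exon 6 of Tfap2b. The region in the Tfap2a hub (chr13:40719309-40720099) overlapped exon 6 and lay wholly between the outer ends of these exons (chr13:40719192-40721387), so it is DNA deleted in EDKO cells and is no measure of openness there. The Tfap2b region (chr1:19233786-19234205) overlapped exon 7, 2.63 kb past exon 6. The loxP sites themselves were not placed, so DNA that was lost and DNA that became less open cannot be told apart at that region. EDKO cells also carry the Tfap2a enhancer sequence of Crect, which the controls lack.

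**Figure D5:**
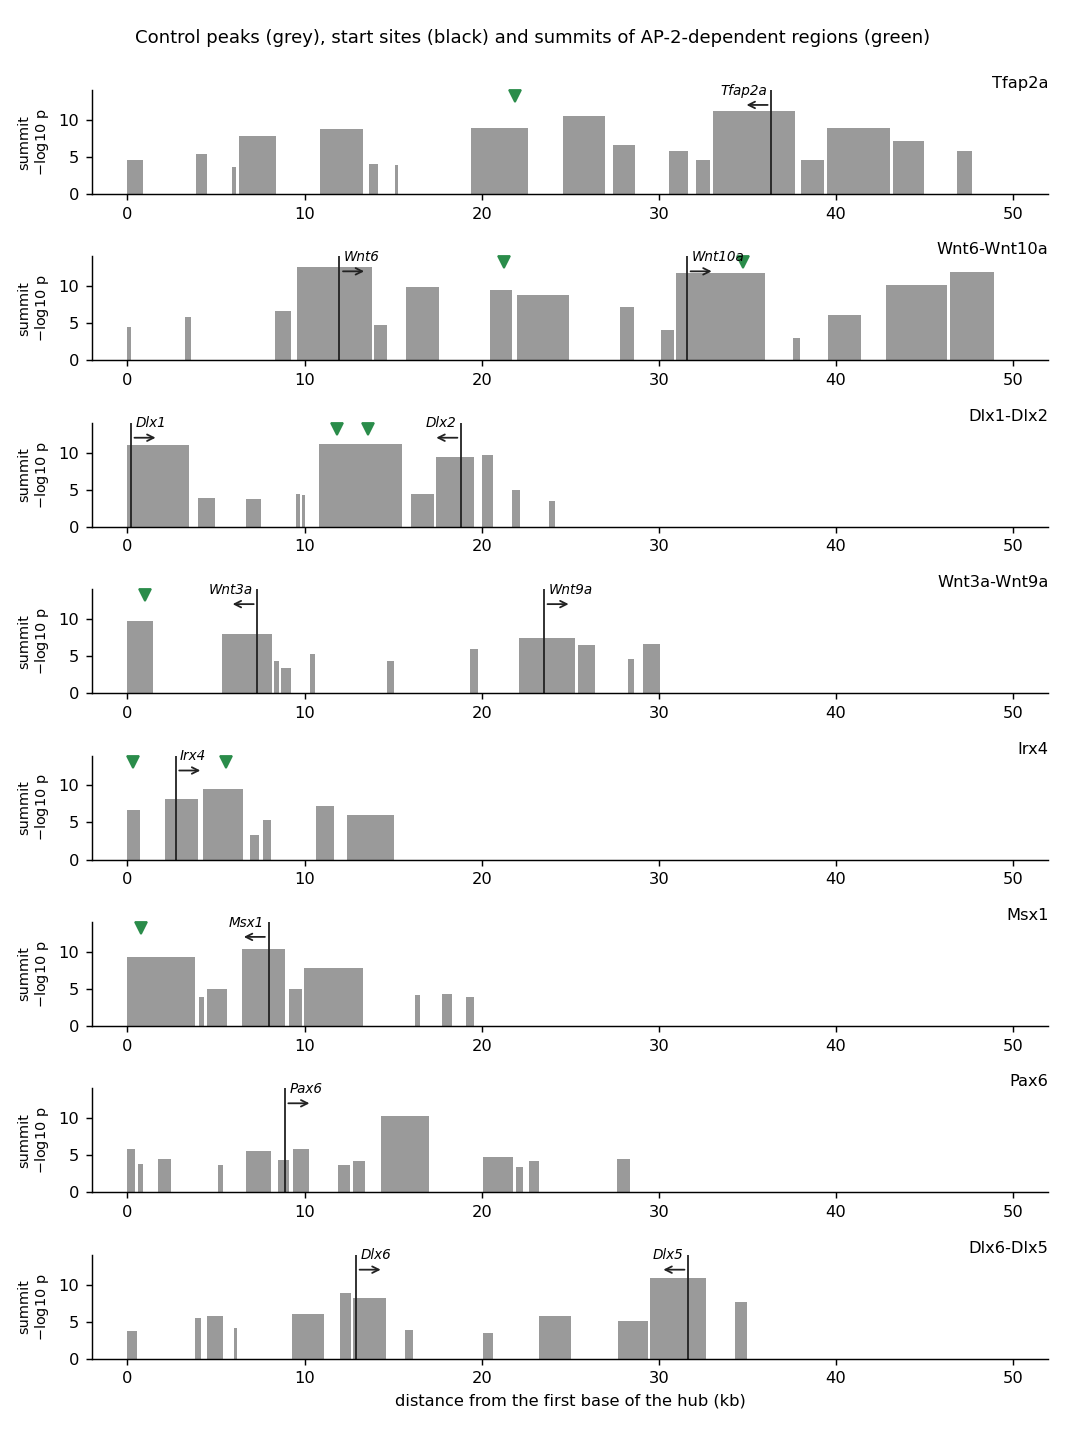
Control peaks of 8 single-copy hubs are drawn as grey bars (width to scale, height the summit −log10 p) against the distance from the first base of the hub (kb), with start sites as black lines and the direction of transcription as arrows, and green triangles at the summits of AP-2-dependent regions. Tfap2a, Wnt3a-Wnt9a and Msx1 carry 1 triangle each, the one at Tfap2a in deleted DNA, Wnt6-Wnt10a, Dlx1-Dlx2 and Irx4 carry 2 each, and Pax6 and Dlx6-Dlx5 carry none.

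A few hubs had most of their regions together. In the hub inside Cers6, a ceramide synthase gene, 3 of 5 peaks overlapped a region, 114.1 to 118.7 kb from the start site, and it was the only single-copy hub with a region in at least 50% of its peaks. The hub inside 2900026A02Rik had 3 of 7. The regions of largest area in single-copy hubs, singled out after their values were seen, were 1 near Arhgap29 (area 3506, 54.9 kb from the start site), and 1 in an intron of Adgrg1, an adhesion receptor gene (area 2611, summit −log10 p 14.7). Both were in the strongest of 5 peaks and both held a match to GCCNNNGGC.

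Histone genes stood out in another way, and they too were picked after their values were seen. Of 54 genes with symbols starting with Hist1h, 22 had their start site in 1 of 4 hubs on chromosome 13, and all 4 hubs held regions, 9 in total, over 7 of 27 peaks (25.9%, beside 2.19% of peaks and 12.1% of hubs over all single-copy hubs at start sites). These 9 were also the only regions in single-copy hubs with multi-copy sequence. Histone genes are near-copies of each other, and the words of these regions occurred a median of 9 to 15.5 times in the assembly. Leaving out such regions left 144 of 4886 peaks (2.95%) and 125 of 777 hubs (16.1%) with a region in single-copy hubs.

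Short consensus strings were counted in the 300 bases around control summits, on both strands and for single-copy peaks. Beyond 5 kb from a start site, GCCNNNGGC was found in 19.96% of hub peaks (18.6 to 21.4%) and 15.0% of peaks outside (14.7 to 15.4%), with 15.4% over all such peaks. Median GC content there was 52.99% in hubs and 49.6% outside, and its part in the difference was not tested. Within 5 kb it was 25.4% in hubs, 26.5% outside and 26.4% over all. Hub peaks within 5 kb that overlapped a region held it in 13 of 39 cases (33.3%, 20.6 to 49.0%). The other hub peaks there held it in 25.25% (23.3 to 27.3%), with overlapping intervals. Hub peaks beyond 5 kb that overlapped a region held the string in 28 of 112 cases (25%, 17.9 to 33.8%) and the others in 19.8% (18.4 to 21.3%), with overlapping intervals. Outside hubs it was 26.4% (24.6 to 28.2%) and 14.3% (13.9 to 14.7%).

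Other strings were less frequent in hub peaks than outside beyond 5 kb, with intervals that did not overlap, and not within 5 kb. A CTCF string, for the factor that bounds chromatin loops, was found in 5.84% of hub peaks, 8.14% outside and 7.98% of all, and a p53-family string, bound also by p63, in 10.7, 14.4 and 14.1%. The TEAD string GGAATG, for factors of the Hippo pathway, was found in 25.3, 27.4 and 27.2%, and the homeodomain string TAATTA in 7.04, 8.52 and 8.41%. Within 5 kb, the CTCF string was more frequent in hub peaks, at 5.25% (4.32 to 6.37%) beside 3.85% outside (3.57 to 4.15%), and so was TAATTA, at 3.77% (2.99 to 4.75%) beside 2.66% (2.43 to 2.92%). There GGAATG was at 15.5 and 14.3% and the p53-family string at 6.29 and 6.59%, with overlapping intervals. Split by region, GGAATG beyond 5 kb was in 36.6% of hub peaks with a region (28.3 to 45.8%) and 24.8% without (23.3 to 26.4%). The CTCF string was in 0 of the 112 with a region (interval up to 3.32%) and 6.07% without (interval from 5.25%). For TAATTA and the p53-family string the intervals of this split overlapped. Within 5 kb they overlapped for each of these strings. A match describes the letters and is not evidence of binding.

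The multi-copy hubs were a different set of loci. Of the 71, 17 were on chromosome 4, 13 on chromosome 8 and 12 on chromosome 5. Of them, 28 held a protein-coding start site. Their peaks had a median GC content of 46.7%, and a median of 30.4% of a peak was masked as repeat. The most peaks, 99 over 184.8 kb, were in the hub at Gm15319 on chromosome 8, near others of 95 and 73 peaks, and an array at Speer4d and Gm21083 on chromosome 5 had 56. The authors aligned reads so that a pair could keep several positions (bowtie2 option -k 10), so reads of such copies could be counted at more than 1 of them.

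In the multi-copy hubs, 4 arrays held 111 of the 138 AP-2-dependent regions (80.4%), and 16 other hubs held the rest. The hub near Gas8 on chromosome 8 had 56 regions over 92.5 kb although it had only 5 control peaks, with summits from 3.02 to 49.6, and 2 of the 56 held GCCNNNGGC. The hub near Atg7 had 33 regions in 27 of 65 peaks, and 30 of them held GCCNNNGGC, 26 of them in the first printed unit. An array of interferon genes on chromosome 4, with Ifnz and 11 neighbours, had 12 regions in 12 of 15 peaks and no match to GCCNNNGGC, while the hub near Pdia4 had 10 regions with summits up to 96.7, 8 with a match. The words of these regions occurred 13 to 53 times. The other multi-copy hubs with 3 or more regions were at Gm15319 (7) and Fcgr3 (5). An array of 27 peaks, 225.8 kb from the Snurf start site, and another of 24 nearby had none. In regions of repeated sequence, copies that differ in openness cannot be told apart.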

How the data were processed

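Surface ectoderm of E11.5 facial prominences was profiled by ATAC-seq in 4 libraries, 2 control and 2 EDKO. The authors trimmed adapters with NGmerge, aligned reads to mm10 (bowtie2, --very-sensitive, -k 10) and used Genrich in its mode for ATAC-seq, leaving out PCR duplicates and chrM. Versions are not given in the sources used here. Libraries were combined in each call. The deposited score is 1000 times the area under the curve over the width, capped at 1000, and the area under the curve is also a score made by the authors. The deposited −log10 p at each summit is unadjusted. The lists hold no counts, so depth is unknown.

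Chains, overlaps and intervals were computed in Python 3.11.15 (numpy 2.4.6, pandas 2.3.3, numba 0.67.0). Chains were also counted with bedtools 2.31.1, and the programs were tested on simulated data. The largest gap was 5 kb, the fewest peaks 5 and the smallest overlap 1 bp. Each of 20722 protein-coding genes on chromosomes 1 to 19 had 1 start site, of its APPRIS principal transcript (GENCODE annotation of GRCm38). Copy number used words of 31 bases on 21 chromosomes. Quartile classes of strength were set over all control peaks of chromosomes 1 to 19. Chromosomes X and Y and scaffolds were not used.

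There is no p-value, since no replicate values exist. The members, the 9 gene lists and the strings were chosen with earlier results of these data known. Hubs named are the 20 with the most peaks, the 15 with the most regions and those with the start site of a listed gene. Beyond these they are the widest, most covered or repeated ones, further hubs near listed genes, and those said to be picked by value. Alternatives to gap, peaks per hub, threshold, overlap, start sites and repeats were computed.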

Additional observations from a re-analysis of the deposited data

How the results depend on the processing

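The 4 results were the number of hubs (848), the share of hub peaks with a region (3.77%), the share of hubs with a region (17.6%) and the share of hubs with a start site (60.7%). Of 38 alternative values, 31 were planned and 7 were chosen after seeing the data, and 13 stayed within 1.5 times (for the number) or within the 95% interval (for shares). The others follow. With a gap of at most 2 kb there were 249 hubs, with 4.83% of peaks, above the 4.51% of all control peaks where the main share is below it, and 54.2% with a start site. With 10 kb there were 1863, with 21.1% with a region and 67.3% with a start site. With 4 peaks or more there were 1697, with 14.6% and 56.2%. With 8 or more there were 162, with 4.36% of peaks, 23.5% with a region and 71.0% with a start site. Keeping only peaks and regions whose area reached 500, there were 296, with 11.8% with a region and 68.6% with a start site. With single-copy peaks only, 3.14% of hub peaks had a region. With gaps taken between summits, 55.3% of hubs had a start site. An overlap of at least 50% of both intervals left 0.662% of peaks and 4.36% of hubs with a region, where the median region in single-copy hubs was 320 bp wide and the median peak 726 bp. With the start sites of all transcripts, 68.0% of hubs held one. Chosen after seeing the data, leaving out the multi-copy hubs gave 3.09% of peaks (2.81% with a gap of at most 2 kb), and leaving out regions of multi-copy sequence gave 2.45% of peaks and 14.7% of hubs. The cause of these changes was not tested.

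No paired analysis was possible because each call joined its libraries and the lists hold no value per library, so leaving out a library could not be done either. Depth is unknown, so how many weak peaks the lists lack cannot be said. Regions that became more open in EDKO ectoderm were not analysed here.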
